A study of Mus musculus with 2 samples.

Results

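*Wnt2*, *Wnt9b* and *Rspo3*, the Wnt-side signals of the liver vessels, and 7 genes that β-catenin turns on, *Lgr5*, *Rnf43*, *Znrf3*, *Axin2*, *Nkd1*, *Tbx3* and *Sp5*, were followed in regenerating mouse liver with and without knockout of miR-182-5p. They were picked by gene symbol, and all 10 were found among the 34745 genes of the deposited table. Each had at least 10 reads over both libraries, as had 13561 genes in all. The study sequenced poly(A) RNA from liver of male mice, 8 to 10 weeks old, at day 3 after 2/3 partial hepatectomy (PH), in which 70% of the liver is removed. The labels name the groups miRNA-182 KO and WT, and both had PH, so no unoperated liver was compared. By the study's methods the KO mice are heterozygous, with a wild-type allele left, and how many mice went into a library is not stated. With 1 library per genotype there is no replicate check, no difference below was tested between genotypes, and every interval covers counting error only.

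Wnt proteins are secreted signals that bind Frizzled receptors and LRP5 or LRP6 on nearby cells. Binding stops a cytoplasmic complex of AXIN, APC and GSK3 from marking β-catenin for destruction, and β-catenin then enters the nucleus, where it acts with TCF/LEF factors on target genes. R-spondins bind LGR receptors and remove the ubiquitin ligases RNF43 and ZNRF3, which otherwise clear Frizzled from the membrane. In the liver, endothelial cells around the central vein are known as the source of *Wnt2*, *Wnt9b* and *Rspo3*, stellate cells also make *Rspo3*, and pericentral hepatocytes answer with genes such as *Glul*, *Cyp2e1* and *Cyp1a2*. Several targets, *Axin2*, *Nkd1*, *Rnf43* and *Znrf3* among them, are inhibitors that feed back on the pathway.

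The libraries held 13247497 (KO) and 13163348 (WT) counts. Mitochondrially encoded genes, 13 of them, held 51.7% of KO and 31.0% of WT counts, so values were scaled with edgeR's TMM, which limits the weight of the most abundant genes. Fold changes are KO over WT on the log2 scale. No value for miR-182 was analysed here, which leaves the KO label without a check on the targeted gene. Scaling by total counts in place of TMM moved the median of all genes tested from 0.00 to −0.60. The liver label was borne out by *Alb*, the albumin gene, with 339876 counts in KO and 536544 in WT.

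The mature strand of the targeted microRNA is shown first, since its seed (bases 2 to 8, in capitals) is the part that pairs with target transcripts. The sequence is that of RefSeq (GRCm38.p6), on the minus strand at chr6:30165962-30165986.
mmu-miR-182-5p: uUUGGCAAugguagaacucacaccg

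The longest annotated 3′ UTR of each of the 10 genes was searched for the letters TTGCCAA, which pair with bases 2 to 8, and for TGCCAAA, which pair with bases 2 to 7 and end in A. *Wnt9b* held 1 match, in a 3′ UTR of 3386 bases, and the other 9 genes, with 3′ UTRs of 560 to 3400 bases, held none. Of 12497 tested genes with an annotated 3′ UTR, 19.5% held at least 1 such match. The *Wnt9b* match lies in the 3′ UTR, in exon 4 of 4, and begins at base 983 of the UTR. The stretch printed below, which ends with the match, lies on the minus strand at chr11:103729761-103729782 of GRCm38. It is shown 5′ to 3′ as DNA with the 7 paired letters in capitals.
*Wnt9b* site: gccattgctaagtctTTGCCAA

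A match of letters is a description and not evidence of binding.

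*Wnt2* and *Wnt9b* encode ligands that pericentral hepatocytes receive from the endothelium. *Wnt2* (ENSMUSG00000010797, minus strand, chr6:17988940-18030585) had 13 counts in KO and 28 in WT, or 0.435 and 0.943 FPKM in the authors' scaling per length and total counts. Its log2 fold change was −0.50 (95% interval −1.59 to 0.48), a level 1.42-fold higher in the WT library whose counting interval included no change. *Wnt9b* (ENSMUSG00000018486, minus strand, chr11:103727364-103749821) had 11 and 31 counts, or 0.184 and 0.521 FPKM. The *Wnt9b* log2 fold change was −0.88 (−2.04 to 0.13), 1.84-fold higher in the WT library. At 11 to 31 counts per library, neither difference was separable from counting error.

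*Rspo3* encodes the R-spondin that raises the response to Wnt. *Rspo3* (ENSMUSG00000019880, minus strand, chr10:29453109-29535867) had 25 counts in KO and 67 in WT, or 0.788 and 2.13 FPKM. The log2 fold change was −0.82 (−1.56 to −0.15), 1.77-fold higher in the WT library, and it was the only one of the 10 genes below 0 whose counting interval left out no change. Such an interval, lower in KO, was found for 26.2% of all genes tested, so 1 gene in 10 is no more than that share. The share covers genes of every abundance and is not matched to the counts of these 10, and intervals narrow as counts rise. In bulk liver, fewer cells of a type and less RNA per cell cannot be told apart.

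All 3 of these genes were lower in KO, at a median of −0.82 on the log2 scale, while 6778 of the 13561 genes tested were below 0. Of all genes tested, 22.7% had a log2 fold change at or below that of *Wnt2*, 12.99% at or below that of *Rspo3* and 11.9% at or below that of *Wnt9b*. None of the 3 reached a 2-fold change with TMM.

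**Figure D1:**
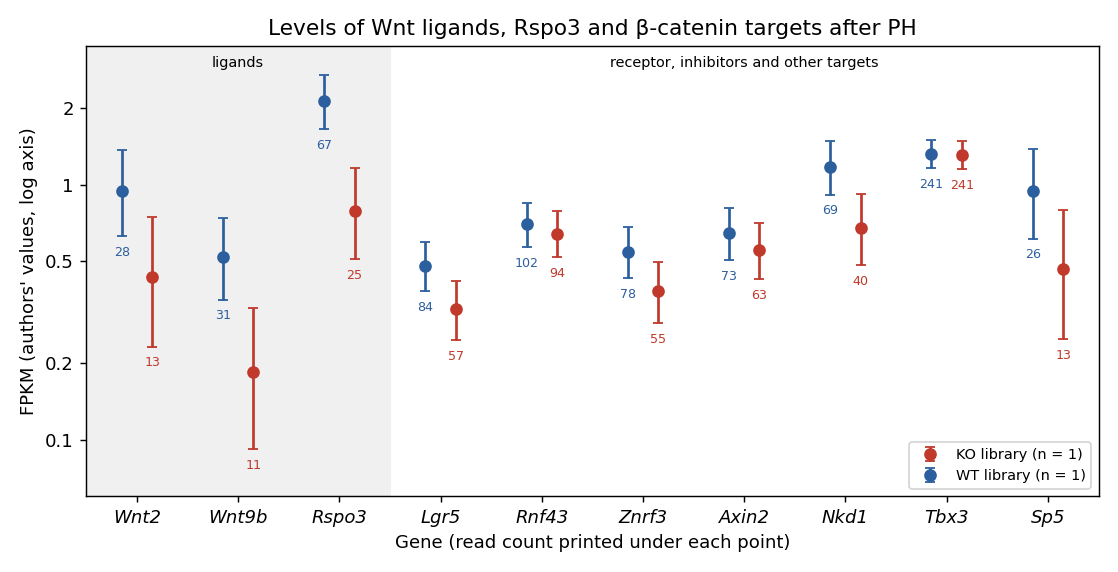
Level of each gene in the KO (red) and WT (blue) library, as the authors' FPKM on a log axis, with 95% Poisson intervals of the count and the read count under each point. The WT point lies above the KO point for every gene, most of all for *Rspo3* (0.788 against 2.13 FPKM) and *Wnt9b* (0.184 against 0.521), while *Tbx3* had 241 counts in both, FPKM being scaled by total counts with mitochondrial genes included.

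*Lgr5* encodes the receptor of R-spondins and is itself a β-catenin target of hepatocytes next to the central vein. *Lgr5* (ENSMUSG00000020140, minus strand, chr10:115450311-115587780) had 57 counts in KO and 84 in WT, or 0.324 and 0.481 FPKM. KO stood to WT at 0.03 on the log2 scale (−0.48 to 0.54). The libraries were level for *Lgr5* once scaled by TMM, and with total counts the value was −0.56.

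*Rnf43* and *Znrf3* encode the membrane ubiquitin ligases that clear Frizzled. *Rnf43* (ENSMUSG00000034177, plus strand, chr11:87662722-87735539) had 94 and 102 counts, or 0.642 and 0.701 FPKM, in the KO and WT library. With TMM it was higher in KO by 0.47 on the log2 scale (0.05 to 0.89) and with total counts at −0.13. The TMM interval left out no change on the higher side, as it did for 25.8% of all genes tested. *Znrf3* (ENSMUSG00000041961, minus strand, chr11:5276324-5444847) had 55 and 78 counts, or 0.381 and 0.544 FPKM, with a log2 fold change of 0.09 (−0.44 to 0.60). Total counts put *Znrf3* at −0.51.

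*Axin2* and *Nkd1* encode inhibitors inside the cell, AXIN2 as scaffold of the destruction complex and NKD1 as a partner of Dishevelled. *Axin2* (ENSMUSG00000000142, plus strand, chr11:108920349-108950783) had 63 counts in KO and 73 in WT, or 0.553 and 0.645 FPKM. KO stood to WT at 0.38 on the log2 scale (−0.13 to 0.89). *Nkd1* (ENSMUSG00000031661, plus strand, chr8:88521344-88594887) had 40 and 69 counts, or 0.677 and 1.18 FPKM. KO stood to WT at −0.19 on the log2 scale (−0.79 to 0.39). Both intervals included no change, and with total counts the values were −0.22 and −0.79.

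*Tbx3* and *Sp5* encode transcription factors that β-catenin induces, TBX3 a T-box repressor and SP5 a zinc-finger factor. *Tbx3* (ENSMUSG00000018604, plus strand, chr5:119670669-119684724) had 241 counts in each library, or 1.31 and 1.32 FPKM. With TMM its log2 fold change was 0.59 (0.33 to 0.86), the highest of the 10 genes, and with total counts −0.01. *Tbx3* overlaps the antisense gene *Tbx3os1*, which had 130 counts in KO and 52 in WT, at log2 1.90 (1.44 to 2.41). Whether reads were counted by strand is not stated, and without strand the reads of this pair cannot be told apart where they overlap. *Sp5* (ENSMUSG00000075304, plus strand, chr2:70474923-70477729) had 13 and 26 counts, or 0.467 and 0.941 FPKM. KO stood to WT at −0.40 on the log2 scale (−1.49 to 0.60). Of the 7 targets *Sp5* had the fewest reads and the widest interval.

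The promoter of *Sp5* is shown because it was the only one of the members' promoters at hand to hold the core letters that TCF/LEF factors are known to read. RefSeq promoters (GRCm38.p6, 250 bases before to 50 after the start) were matched for 6 of the 10 genes, *Sp5*, *Axin2*, *Nkd1*, *Rnf43*, *Wnt2* and *Wnt9b*. They were searched for CTTTGA on both strands (TCAAAG on the other strand), with overlaps counted. The start used for *Nkd1* lay 6289 bases from the deposited gene start, and those used for *Rnf43* lay 365 and 37175 bases from its own. *Sp5* held 2 matches, both on its own strand, beginning 204 and 104 bases before the start, while 16.0% of 32817 promoters held at least 1 and 1.73% held at least 2. That of *Axin2*, whose transcript is the usual readout of the pathway, is shown beside it and held none in this window. Matches are in capitals. The *Sp5* promoter lies on the plus strand at chr2:70474673-70474972 and the *Axin2* promoter on the plus strand at chr11:108920099-108920398.
*Sp5*: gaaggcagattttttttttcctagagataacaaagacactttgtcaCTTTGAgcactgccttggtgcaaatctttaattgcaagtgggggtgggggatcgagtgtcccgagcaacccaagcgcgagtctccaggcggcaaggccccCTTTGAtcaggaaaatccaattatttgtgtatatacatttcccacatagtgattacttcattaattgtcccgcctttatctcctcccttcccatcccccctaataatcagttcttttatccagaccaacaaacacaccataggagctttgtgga
*Axin2*: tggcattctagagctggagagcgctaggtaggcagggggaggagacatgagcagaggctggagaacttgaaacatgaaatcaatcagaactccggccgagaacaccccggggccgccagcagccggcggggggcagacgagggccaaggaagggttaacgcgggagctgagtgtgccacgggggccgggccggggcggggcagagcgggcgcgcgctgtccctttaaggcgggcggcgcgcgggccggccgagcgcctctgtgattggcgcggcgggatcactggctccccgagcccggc

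Across the 10 genes, 5 were above 0 and 5 below with TMM, all 10 were below 0 with total counts, and the median log2 fold change was −0.08, against 0.00 over all genes tested. With TMM, 0 of the 10 were at least 2-fold lower and 0 at least 2-fold higher in the KO library, against 9.94% and 9.46% of all genes tested, and 9.34% and 7.66% of the 7176 genes with as many counts as these. Either way, 19.4% of all genes tested were past 2-fold. With total counts 3 were at least 2-fold lower, *Wnt2* at −1.09, *Wnt9b* at −1.46 and *Rspo3* at −1.41, and 0 at least 2-fold higher, against 26.6% and 4.6% of all genes tested. The ligands sat at the low end of the 10 genes under either scaling, and *Tbx3* and *Rnf43* at the high end. The change of scaling moves every gene by nearly the same amount, so this order is no check on the result.

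**Figure D2:**
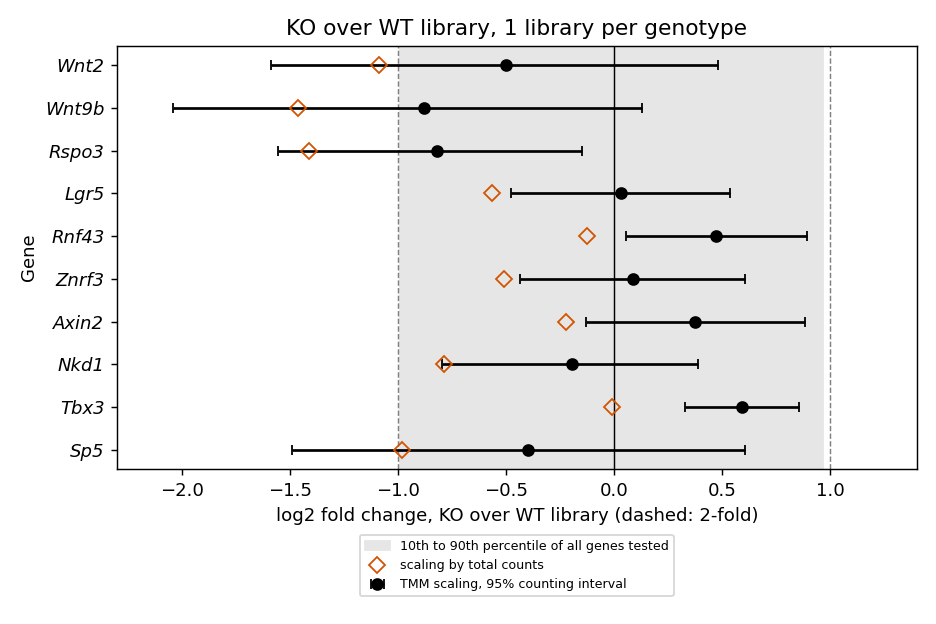
KO over WT on the log2 scale for each gene, with TMM (black, 95% counting interval) and with total counts (open diamonds), over the 10th to 90th percentile of all genes tested (grey band, −0.99 to 0.97). The black points of *Wnt2*, *Wnt9b* and *Rspo3* lie at −0.50, −0.88 and −0.82 and those of *Rnf43* and *Tbx3* at 0.47 and 0.59, and total counts move all to the left, *Rnf43* and *Tbx3* to −0.13 and −0.01.

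A ratio of counts within a library needs no scaling, so the ligands were also set against the 7 other genes, a comparison chosen after the counts were seen. *Wnt2*, *Wnt9b* and *Rspo3* together had 49 counts in KO and 126 in WT, and the 7 other genes 563 and 673. The ligands thus had 8.70 counts per 100 of the targets in KO and 18.7 in WT. The ratio in KO was 0.465 of that in WT (exact 95% interval 0.321 to 0.665). Without *Tbx3*, which supplies the most counts, it was 0.522 (0.356 to 0.757). Taken apart, the ratio to the 7 genes was 0.486 (0.286 to 0.806) for *Wnt2* and *Wnt9b* together and 0.446 (0.266 to 0.727) for *Rspo3*. The targets also differed among themselves, and *Sp5* and *Nkd1* together over *Tbx3*, *Rnf43* and *Axin2* stood in KO at 0.583 (0.397 to 0.850) of the WT ratio. That split set the lowest of the targets against the highest, so a ratio below that in WT was fixed by the choice and says nothing of the ligands. These splits were made on the values they describe, so the ratios are a description of these libraries.

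Markers of endothelial and stellate cells were as follows. The endothelial list holds genes of endothelium at large and of sinusoids and was not made for the central vein. A ratio to it is therefore not a ratio to the central-vein cells known to make the ligands. Of 18 endothelial markers, all with at least 10 counts, 11 were below 0 and 7 above, with a median of −0.23 and a summed level of 238.5 CPM in KO and 232.7 in WT. None of the 18 was at 0 in either library. *Stab2*, the scavenger receptor of sinusoidal endothelium, had 318 and 476 counts (log2 fold change 0.01), and *Cdh5*, the endothelial cadherin, 89 and 148 (−0.14). *Lyve1*, a sinusoidal receptor for hyaluronan, had 4 and 45 counts (−2.78), *Thbd*, thrombomodulin, 6 and 39 (−2.04), and *Tek*, the angiopoietin receptor, 36 and 119 (−1.12). These 3 were at least 2-fold lower and *Selp*, with 11 and 4 counts, at least 2-fold higher, against 9.94% and 9.46% of all genes tested. The endothelial genes named here were chosen after their values were seen. Relative to the summed endothelial markers, *Wnt2* and *Wnt9b* stood in KO at 0.598 (0.355 to 0.980) of their WT ratio and *Rspo3* at 0.549 (0.331 to 0.884). *Stab1*, *Eng* and *Stab2* supplied 1415 of the 2565 KO and 1772 of the 3773 WT counts of this sum. Over the other 15 markers the ratios were 0.708 (0.419 to 1.16) and 0.649 (0.391 to 1.05), and both intervals included no change.

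Of 14 stellate cell markers, all with at least 10 counts, 11 were below 0 and 3 above, with a median of −0.51 and summed levels of 200.4 and 266.3 CPM. None was at 0, and *Hgf*, *Col1a1* and *Acta2*, named after their values were seen, were at least 2-fold lower, as were 9.94% of all genes tested. The *Rspo3* ratio to these markers was 0.748 (0.451 to 1.20) of that in WT, an interval that included no change. The part of the number or makeup of endothelial and stellate cells in the ligand levels was not tested.

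**Figure D3:**
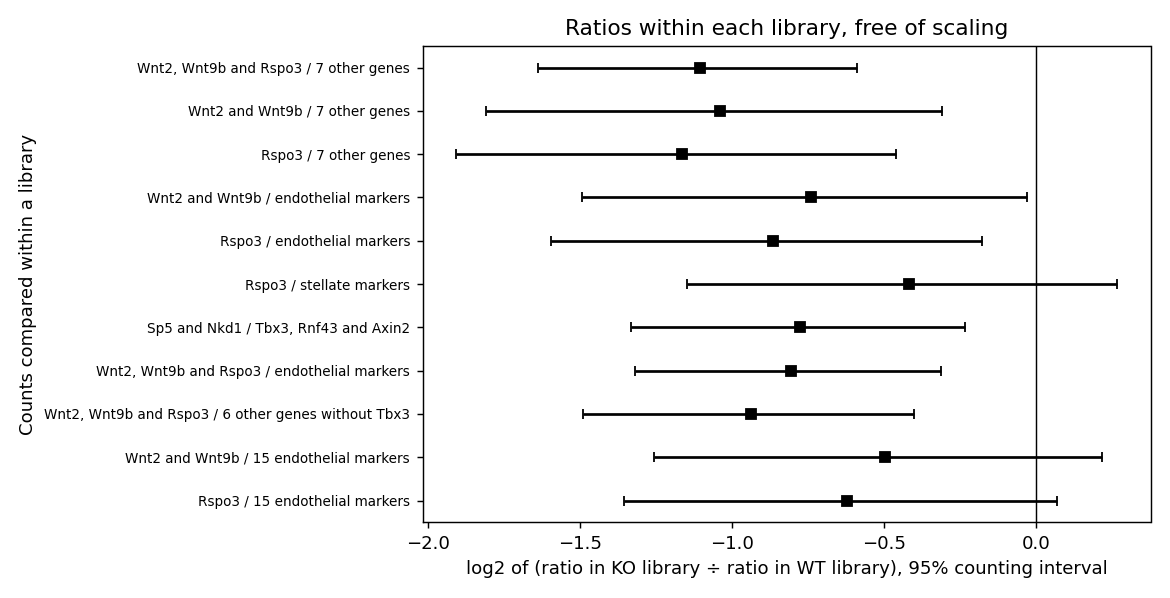
Ratio of summed counts within the KO library divided by the same ratio within the WT library, on the log2 scale with exact 95% counting intervals. All points lie below 0, from −1.16 for *Rspo3* over the 7 other genes to −0.42 for *Rspo3* over stellate markers, and the intervals of the latter and of both ratios over 15 endothelial markers (−0.50 and −0.62) reach past 0.

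Per length, the share of all genes tested with a lower FPKM ran over the 10 genes from 13.1% to 51.6% in KO and from 21.5% to 53.4% in WT. In the WT library *Rspo3* was the highest of the 10 at 2.13 FPKM, above *Tbx3* at 1.32 with no overlap of their counting intervals. Below *Tbx3* came *Nkd1*, *Wnt2*, *Sp5*, *Rnf43*, *Axin2*, *Znrf3*, *Wnt9b* and *Lgr5*, and the counting intervals of all neighbours in this order overlapped. In the KO library *Tbx3* came first at 1.31 FPKM and *Rspo3* second at 0.788, with intervals that touched (1.15 to 1.49 and 0.510 to 1.16). They were followed by *Nkd1*, *Rnf43*, *Axin2*, *Sp5*, *Wnt2*, *Znrf3* and *Lgr5*, each overlapping its neighbours. *Wnt9b* came last at 0.184 FPKM, below *Lgr5* at 0.324, again with overlapping intervals. *Wnt2* thus ranked 4 in WT and 7 in KO, while *Rnf43* ranked 6 and 4, *Axin2* 7 and 5, and the other genes differed by at most 1 rank.

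The other genes of the pathway were read from lists by role. Of the 19 Wnt genes, 12 had 0 counts in both libraries, which allows up to 3 counts each, and *Wnt7a* had 1 and 0. Of the 6 that reached 10 counts, 4 were below 0 and 2 above, with a median of −0.37. *Wnt5b*, a ligand known for signaling without β-catenin, had 14 counts in KO and 60 in WT, at log2 −1.48 (−2.46 to −0.65). It was the only one of the 6 at least 2-fold lower, against 9.94% of all genes tested. As examples named after their values were seen, *Wnt4* and *Wnt5a* stood at 0.13 and 0.17. Among the 4 R-spondins only *Rspo3* had at least 10 counts, *Rspo1* and *Rspo4* had none and *Rspo2* had 1 count in the KO library.

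Of 5 genes for Wnt secretion, *Wls*, the carrier that brings Wnt proteins to the cell surface, had 39 counts in KO and 11 in WT (log2 fold change 2.36, 1.42 to 3.53). *Tmed2*, a cargo receptor of the early secretory route, had 6 and 202 counts (−4.39, −5.94 to −3.33), and it shares 27.5% of its 51-base words with transcripts of other genes, so that reads could have been divided differently. *Porcn*, which adds the lipid that Wnt proteins need and was named after its value was seen, had 22 and 36 counts (−0.12). The secretion genes thus differed in direction.

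Of 18 receptors and co-receptors, 12 had at least 10 counts, 8 above 0 and 4 below, with a median of 0.09. *Lrp6*, the Wnt co-receptor, had 376 and 531 counts (log2 fold change 0.09). *Fzd4*, a Frizzled of vessels and other tissues, had 16 and 7 counts (1.70, 0.42 to 3.31). It was the only one of the 12 past 2-fold, against 19.4% of all genes tested. Of 16 secreted and membrane antagonists, 4 had at least 10 counts, and their median was 0.29. *Notum*, an esterase that strips the lipid from Wnt proteins and is itself a target gene, had 176 and 263 counts (0.01). *Dkk3*, of the Dickkopf family, had 28 and 19 counts (1.13, 0.26 to 2.07).

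The cytoplasmic list held 21 genes, 11 above 0 and 10 below, with a median of 0.21. *Ctnnb1*, which encodes β-catenin, had 635 counts in KO and 1002 in WT, at log2 −0.07 (−0.21 to 0.08). *Dvl1*, a Dishevelled adaptor, had 1326 and 1502 counts (0.41, 0.30 to 0.52). *Nkd2*, the relative of *Nkd1*, had 12 and 5 counts (1.74, 0.25 to 3.71). It was the only one of the 21 past 2-fold, against 19.4% of all genes tested. Of 12 nuclear effectors with at least 10 counts, 9 were above 0 and 3 below, with a median of 0.41, and *Tle1*, a Groucho co-repressor, stood at 0.86 with 536 and 446 counts. *Pygo1*, a β-catenin co-factor, had 0 counts in KO and 12 in WT, at least 2.65-fold lower against a floor of 3 counts.

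In all, 128 pathway and zonation genes were listed and 93 had at least 10 counts, of which 4 (*Wls*, *Fzd4*, *Dkk3* and *Nkd2*) were at least 2-fold higher and 3 (*Wnt5b*, *Tmed2* and *Pygo1*) at least 2-fold lower, against 9.46% and 9.94% of all genes tested. *Wls*, *Fzd4*, *Dkk3*, *Nkd2* and *Pygo1* had under 50 counts in each library and were named after their values were seen. The median over the 93 genes was 0.04. With total counts it was −0.56, and 3 genes were at least 2-fold higher and 19 at least 2-fold lower, against 4.6% and 26.6% of all genes tested. In the authors' own annotation, 139 genes belong to the KEGG Wnt signaling pathway, and of 98 with at least 10 counts 8 were at least 2-fold higher and 5 at least 2-fold lower, with a median of −0.07. Both groups of genes thus lay close to the median of all genes tested.

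**Figure D4:**
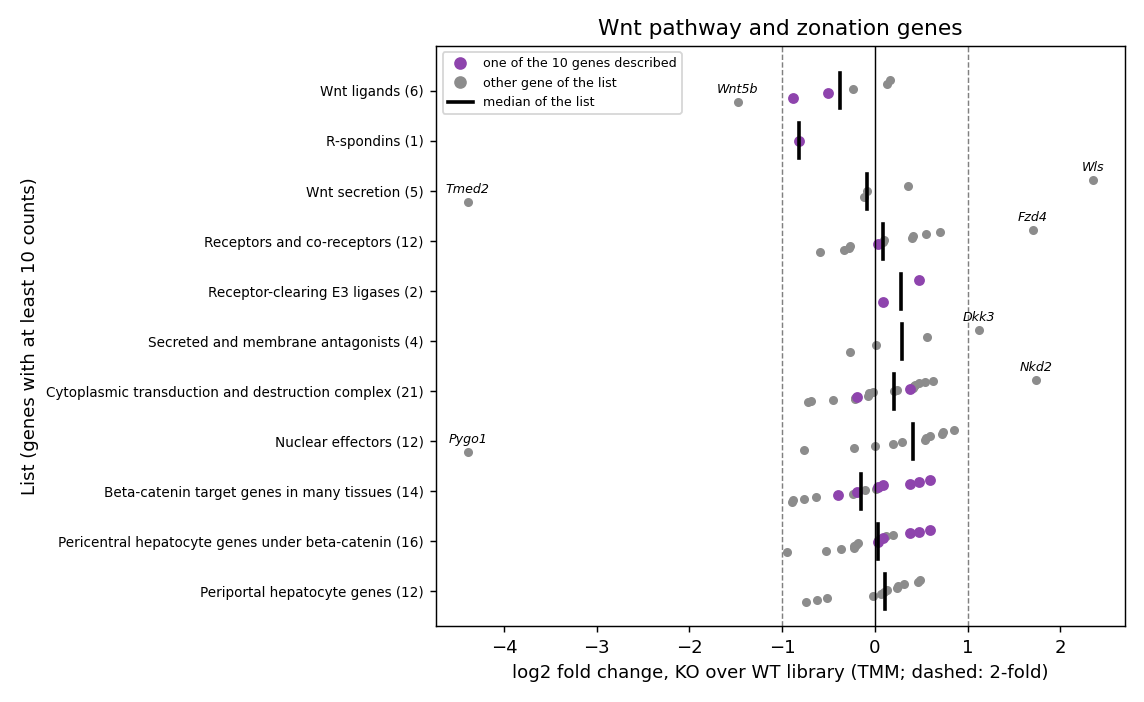
Log2 fold change, KO over WT library with TMM, of each gene with at least 10 counts in 11 lists by role, with the 10 genes described above in purple, list medians as bars and genes past 2-fold named. Medians run from −0.82 (R-spondins, *Rspo3* alone) to 0.41 (nuclear effectors), and the point of *Pygo1*, with 0 KO counts, is a fitted value.

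Of 16 listed β-catenin target genes of many tissues, 14 had at least 10 counts, 8 below 0 and 6 above, with a median of −0.15. None of the 14 was past 2-fold, against 19.4% of all genes tested. Of the 14, 7 are among the 10 genes, and of the 7 others 6 were below 0 and 1 above, with a median of −0.63. *Ccnd1*, cyclin D1 of the G1 phase, which other pathways also drive, had 529 counts in KO and 1487 in WT, at log2 −0.90 (−1.05 to −0.75). *Myc*, a transcription factor of cell growth, had 37 and 103 counts (−0.88, −1.47 to −0.33), and *Tcf7*, a TCF/LEF factor, 24 and 62 (−0.77, −1.52 to −0.08). *Tnfrsf19*, a receptor of the TNF family, stood at −0.63, *Cd44*, an adhesion receptor, at −0.24, *Bambi*, a TGF-β pseudoreceptor, at −0.11 and *Notum* at 0.01. These others are shown to complete the list, after their values were seen. The 7 targets among the 10 genes ran from −0.40 to 0.59, with a median of 0.09.

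The pericentral program of hepatocytes, which β-catenin is known to sustain, held genes on both sides of 0. Of its 16 listed genes, 9 were above 0 and 7 below, with a median of 0.03 and 0 past 2-fold, against 19.4% of all genes tested. The counting interval left out no change for 5 higher and 7 lower, against 25.8% and 26.2% of all genes tested. These shares are not matched to the counts of the listed genes, and intervals narrow as counts rise. For *Glul* the interval left out no change at a log2 fold change of only 0.07. *Lgr5*, *Axin2*, *Tbx3*, *Rnf43* and *Znrf3* are 5 of the 9 above 0, and of the 11 other genes 4 were above 0 and 7 below, with a median of −0.21. *Glul*, glutamine synthetase of the hepatocytes around the central vein, had 4226 and 6086 counts (log2 fold change 0.07, 0.01 to 0.12). *Cyp2e1*, the ethanol-oxidising cytochrome, had 12292 and 17020 counts (0.12, 0.09 to 0.16), and *Cyp1a2*, a cytochrome of drug metabolism, 3037 and 5279 (−0.21, −0.27 to −0.14). *Rhbg*, an ammonium transporter, was lowest with 74 and 215 counts (−0.94, −1.35 to −0.56), and was named after its value was seen. The 12 periportal genes had a median of 0.11, with 8 above 0, 4 below and 0 past 2-fold, and *Pck1*, of gluconeogenesis, stood at 0.49. With total counts the pericentral and periportal medians were −0.56 and −0.49.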

How the data were processed

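Total RNA of liver was poly(A)-selected and sequenced on Illumina HiSeq instruments. The authors deposited whole-number counts of reads per gene, without normalization, and FPKM. The count-to-FPKM ratio differed between libraries by a factor of 1.006 in every gene with over 20 counts in each, so FPKM are scaled by total counts. The submitters' processing notes name HISAT2 2.0.4, StringTie and edgeR, and the build hg38, though identifiers and loci are of mouse. Of 34745 identifiers 34267 are in GENCODE M21 (GRCm38), 80.8% with the same coordinates. Of the 10 genes *Rspo3* and *Nkd1* differ there. Loci are the authors'. The annotation and the counting by strand are not given in the sources used here.

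A gene needed 10 counts summed over both libraries. Counts were scaled with TMM (edgeR 4.0.16, R 4.3.3), and log2 fold changes used a prior count of 0.5. Intervals are exact 95% binomial or, for levels, Poisson intervals. Ratios of summed counts have exact conditional intervals (scipy 1.17.1). PCR reads without molecular identifiers are not independent molecules, so these intervals cover counting error only. A gene was called past 2-fold at a log2 fold change of 1 in size, with no p-value. The TMM scaling, the log2 fold changes and the binomial intervals were tested on simulated counts. Alternatives were total counts, DESeq2 1.42.0 size factors, upper-quartile factors, total counts without mitochondrial genes, FPKM on a log2 scale after adding 0.1, a prior count of 5, minimums of 1 or 50 counts and a 2-fold limit with a counting interval.

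Genes named are the 10, *Glul*, *Cyp2e1*, *Cyp1a2* and *Ctnnb1*, and from each list up to 5 genes past 2-fold with at least 50 counts in the higher library, or else the one with the most counts. Other genes were named after their values were seen. *Alb* and *Tbx3os1* are checks. The 10 genes, the lists and the rule were chosen with earlier results of these data known. The KEGG list and the ratios within libraries came later, with the data in view. *Tf*, a hepatocyte marker, is not listed. Hepatocyte markers had a median of −0.04 over 9 genes, Kupffer cell and macrophage markers −0.31 over 11, cholangiocyte markers 0.40 over 6, neutrophil markers 0.15 over 3, lymphocyte markers 1.19 over 4 and erythroid markers −0.59 over 5. Of the 9 hepatocyte markers 5 were below 0 and 4 above. *Apob*, with 1517 counts in KO and 17808 in WT (−2.96), and *Cyp3a11*, with 12443 and 51743 (−1.46), were at least 2-fold lower. None was at least 2-fold higher, and the shares of all genes tested were 9.94% lower and 9.46% higher.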

Additional observations from a re-analysis of the deposited data

How the results depend on the processing

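No paired analysis was possible because neither genotype has a second library, and no replicate could be left out. With total counts, 3 of the 10 genes were at least 2-fold lower, and with the authors' FPKM 2, against 0 with TMM and with each other alternative. Of all genes tested, 26.6% were at least 2-fold lower with total counts and 9.94% with TMM, and the share with FPKM was not computed. The 3 with total counts are thus near the share of all genes. No alternative put any of the 10 at least 2-fold higher. The median of the 10 genes was −0.68 with total counts, against −0.08, and 0.10 with a minimum of 50 counts, where *Wnt2*, *Wnt9b* and *Sp5* drop out. *Rnf43* and *Tbx3* turned to −0.13 and −0.0092 with total counts and to −0.11 and −0.0085 with FPKM.

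Of the 93 pathway and zonation genes with at least 10 counts, 4 were at least 2-fold higher and 3 lower with TMM, against 9.46% and 9.94% of all genes tested. Those lower were 19 with total counts, 16 with FPKM and 6 with a minimum of 1 count, and those higher 1 with FPKM, 12 with a minimum of 1 count and 1 with a minimum of 50 counts, where fewer or more genes enter. Of the cell type markers with at least 10 counts, numbered per list above, 6 were higher and 11 lower with TMM, against 9.46% and 9.94% of all genes tested. Those lower were 27 with total counts, against 26.6% of all genes tested, and 26 with FPKM. Those higher were 2 with FPKM and 2 with a minimum of 50 counts. A prior count of 5 left 3 pathway genes higher and 8 cell type markers lower, and with it, DESeq2's size factors or upper-quartile factors each count stayed within 1.5 times the TMM count. Leaving the 3 most abundant endothelial markers out of their sum, chosen after seeing the data, brought the intervals of both ligand ratios past 1. *Wnt2*, *Wnt9b* and *Sp5* have 11 to 31 counts per library, so counting error alone limits what can be said of them.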
